A study of Mus musculus with 6 samples.

Results

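The genes described here encode the enzymes and factors that set how often a cell starts translation: the 4 kinases that phosphorylate the α subunit of initiation factor eIF2 (Eif2ak1 to Eif2ak4), that subunit itself (Eif2s1), the catalytic subunit of its exchange factor eIF2B (Eif2b5), the 2 regulatory subunits that direct protein phosphatase 1 to eIF2α (Ppp1r15a and Ppp1r15b), and the eIF4E-binding protein 4E-BP1 (Eif4ebp1). They were chosen by name, with earlier results of these data known, and all 9 had a row among the 43346 genes of the count table and passed the filter on low counts that left 14000 genes for testing. Expression was measured by RNA sequencing of primary mouse embryonic fibroblasts (MEFs) of strain C57BL/6 at passage 9. The cells were given 3 µM erastin or the solvent DMSO for 24 h, with 3 libraries each, and the culture medium of both groups held 2-mercaptoethanol. Erastin blocks the cystine/glutamate antiporter and is used to induce ferroptosis, a cell death that depends on iron and lipid peroxidation. The labels do not say whether the libraries of a group came from separate cultures or embryos, so p-values measure only the spread between these libraries, which may be technical.

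eIF2 in its GTP-bound form brings the initiator tRNA to the ribosome. When a kinase phosphorylates eIF2α, the factor holds eIF2B in an inactive state, most translation slows, and a few mRNAs with upstream open reading frames, among them that of the transcription factor ATF4, are translated more. This is the integrated stress response, and the GADD34 protein encoded by Ppp1r15a closes it by returning phosphatase to eIF2α. 4E-BP1 acts on another step, binding and restraining the cap-binding protein eIF4E when the kinase complex mTORC1 is inactive. Kinase activity, phosphorylation of eIF2α and translation were not measured, and the values below are levels of RNA.

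Total counts ran from 13333911 to 20509970 per library. Pearson's r of log2 CPM (CPM, counts scaled to library size with TMM factors and given per 1e+06 reads), ran across genes, themselves no independent replicates, from 0.965 to 0.983 inside a group and from 0.924 to 0.938 between the groups. DMSO replicate 3 stood apart from DMSO replicates 1 and 2 on the second principal component, which held 14.5% of the variance. All 11 fibroblast markers were expressed, and their summed level was 36600 to 39900 CPM in DMSO and 26500 to 28100 CPM in erastin libraries. The 7 epithelial markers summed to at most 3.65 CPM in any library and the 6 macrophage and leukocyte markers to at most 58.5 CPM, with ranges that overlapped between the groups. The 5 endothelial markers summed to 5.10 to 7.71 CPM in DMSO and 14.1 to 17.4 CPM with erastin, the 5 skeletal muscle markers to 35.7 to 45.4 and 65.1 to 68.5 CPM, and the 5 neural markers to 56.9 to 81.7 and 37.1 to 45.6 CPM. No marker of these lists was at 0 in all 6 libraries, but 4 of the 5 skeletal muscle, 4 of the 5 neural, 3 of the 5 endothelial and 6 of the 7 epithelial markers were under 1 CPM in every library. Their part in the results below was not tested. In such bulk RNA, fewer cells of a type and less RNA per cell cannot be told apart.

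Erastin-treated MEFs had much more Ppp1r15a RNA than controls and moderately more Ppp1r15b, Eif4ebp1 and Eif2s1 RNA, while Eif2ak1 and Eif2b5 were slightly lower and the other 3 kinase genes did not pass the test. Of the 9 genes, 6 had an adjusted p under 0.05 (quasi-likelihood test of edgeR, Benjamini-Hochberg adjustment over the 14000 genes), 4 higher and 2 lower. Among all genes tested 43.1% passed, 21.6% higher and 21.5% lower, so 2 lower among 9 is close to the background. In the same 6 genes the 3 erastin libraries lay wholly above or wholly below the 3 DMSO libraries, against 52.5% of all genes tested. The median log2 fold change was 0.040 over the 9 genes and -0.0014 over all genes tested. The 4 rises passed under all 15 alternative analyses each. The 2 falls were lost under 8 of 15 each.

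**Figure D1:**
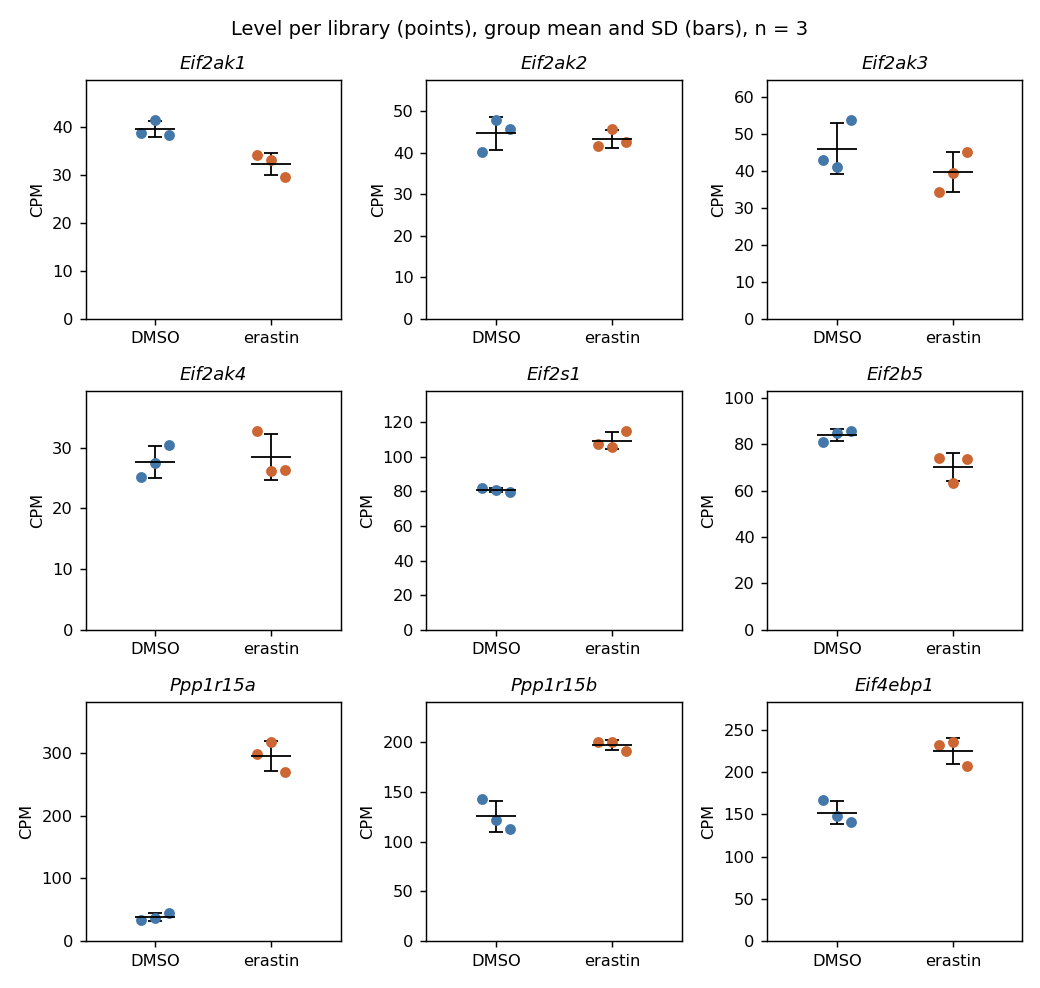
Level of each of the 9 genes in CPM (vertical axes, starting at 0) in the 3 DMSO and 3 erastin libraries; points are libraries, long bars group means and error bars SD. Ppp1r15a goes from 33.6 to 44.6 CPM in DMSO to 270 to 319 CPM with erastin, while the points of Eif2ak2, Eif2ak3 and Eif2ak4 overlap between the groups.

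Ppp1r15a (ENSMUSG00000040435.10; mm10 chromosome 7, 45522916 to 45526268, minus strand) encodes GADD34, the stress-inducible phosphatase subunit. It stood at 33.6, 36.5 and 44.6 CPM in DMSO replicates 1, 2 and 3 and at 300, 319 and 270 CPM in erastin replicates 1, 2 and 3. Every erastin library was several times as high as the highest DMSO library. The fold change was 7.76 (log2 fold change 2.96 with an SE of 0.11, 95% interval 2.73 to 3.19; adjusted p = 1.76e-10 by edgeR), and 1.04% of all genes tested had a larger absolute change. Only 12 bases of its exons, 0.41% of them, overlap another gene, Tulp2 on the opposite strand, which had at most 10 reads in a library.

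The bases just before its start site are shown because this is the gene with the largest change of the 9 and the only one whose promoter window held one of the motifs searched. The sequence is that of RefSeq (GRCm38.p6), chr7:45526269-45526518, minus strand, written 5′ to 3′ and ending at the base before the annotated start. The capitals mark TGACGTCA, the full cyclic AMP response element (CRE) to which ATF and CREB family factors can bind.
Ppp1r15a upstream: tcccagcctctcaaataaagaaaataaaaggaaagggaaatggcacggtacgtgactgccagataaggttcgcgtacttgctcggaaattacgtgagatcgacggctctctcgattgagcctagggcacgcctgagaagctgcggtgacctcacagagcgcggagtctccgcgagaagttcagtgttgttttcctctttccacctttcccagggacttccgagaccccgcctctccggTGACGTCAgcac

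The CRE begins 12 bases before the start. RefSeq windows of 300 bases (250 before and 50 after a start) were found for 7 of the 9 genes, 8 windows in all, and not for Ppp1r15b and Eif4ebp1. On both strands they were searched for 3 motifs, chosen with earlier results known. TGACGTCA was in 588 of 32851 windows of all genes (1.79%), and among the 8 windows in that of Ppp1r15a alone. TGACNNNGC, the core of the antioxidant response element, was in 12.39% of all windows and, among the 8, also in that of Ppp1r15a alone, after the start and on the opposite strand. TGATGNAA, the core of the response element shared by C/EBP and ATF factors, was in 3.97% of all windows and in 0 of the 8. None of these motifs contains another. A match describes letters only, and binding was not measured.

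Ppp1r15b (ENSMUSG00000046062.5; mm10 chromosome 1, 133131143 to 133139783, plus strand) encodes CReP, the phosphatase subunit that acts in unstressed cells. Its level was 143, 121 and 112 CPM in the DMSO and 200, 201 and 191 CPM in the erastin replicates, in the order 1, 2, 3. The groups did not overlap, and the erastin libraries were close together while the DMSO libraries were spread (coefficient of variation 2.73% against 12.5%). The fold change was 1.57 (log2 fold change 0.65 with an SE of 0.089, 95% interval 0.46 to 0.84; adjusted p = 3.42e-05 by edgeR). An opposite-strand transcript, Gm26616, overlaps 11.44% of its exon bases and had at most 12 reads in a library.

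The balance between the phosphatase subunits was compared within each library, as the ratio of counts per base of exon, which needs no scaling between libraries. Ppp1r15a over Ppp1r15b was 0.447, 0.572 and 0.756 in the DMSO replicates and 2.85, 3.03 and 2.69 in the erastin replicates. Ppp1r15a was thus the lesser of the pair in every DMSO library and the greater in every erastin library. The ratio was 4.93-fold higher with erastin (difference 2.30 on the log2 scale, from -0.79 ± 0.379 to 1.51 ± 0.0838, SD, n = 3; exact permutation test, two-sided, p = 0.1, 0.175 adjusted over the 7 ratios compared). With 3 libraries a group, p = 0.1 is the smallest that this exact permutation test can give, so no ratio could pass.

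The catalytic subunits of protein phosphatase 1, which both of these proteins recruit, all passed, but in different directions. Ppp1cc rose, with 24.2 ± 2.65 CPM in DMSO and 38.0 ± 4.31 CPM with erastin (SD, n = 3; log2 fold change 0.65 with an SE of 0.13; adjusted p = 0.000833 by edgeR). Ppp1cb was 156 ± 20.8 CPM in DMSO and 205 ± 22.7 CPM with erastin (SD, n = 3; log2 fold change 0.40; adjusted p = 0.00609 by edgeR), a rise that was lost after a correction for GC content and transcript length (log2 fold change 0.16; adjusted p = 0.166 by edgeR). Ppp1ca fell by 0.43 on the log2 scale, from 236 ± 11.2 to 175 ± 9.69 CPM (SD, n = 3; adjusted p = 0.000289 by edgeR).

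**Figure D2:**
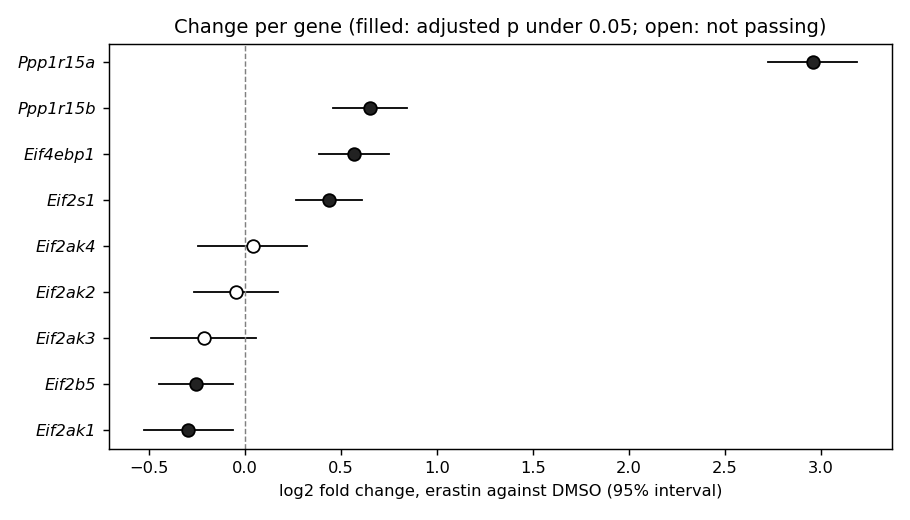
Log2 fold change of the 9 genes, erastin against DMSO (horizontal axis), with 95% intervals; filled points had an edgeR adjusted p-value under 0.05. Ppp1r15a at 2.96 stands far right of the other rises of 0.44 to 0.65, and the small falls of Eif2b5 and Eif2ak1 (-0.25 and -0.29) did not pass under 8 of 15 alternative analyses each.

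The kinase genes answer to different signals: Eif2ak1 encodes HRI, which heme restrains and mitochondrial stress can activate; Eif2ak2 encodes PKR, activated by double-stranded RNA; Eif2ak3 encodes PERK, which senses misfolded protein in the endoplasmic reticulum; and Eif2ak4 encodes GCN2, activated when uncharged tRNA accumulates. None of the 4 passed as higher with erastin at the RNA level, and their log2 fold changes lay between -0.29 and 0.040. Summed over the 4, the level per kilobase of merged exon was 25.2, 27.2 and 28.8 CPM in the DMSO and 24.3, 24.8 and 24.6 CPM in the erastin replicates. The summed level was thus lower in each erastin library than in each DMSO library, but DMSO replicate 1 and the erastin libraries were close.

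Eif2ak4 (ENSMUSG00000005102.9; mm10 chromosome 2, 118388618 to 118475234, plus strand) was at 25.2, 27.4 and 30.4 CPM in DMSO and at 32.8, 26.1 and 26.4 CPM with erastin. The groups overlapped, erastin replicate 1 being the highest of the 6 libraries. The log2 fold change was 0.040 (95% interval -0.24 to 0.32; adjusted p = 0.836 by edgeR), and its sign turned under 5 of the 15 alternatives. Eif2ak2 (ENSMUSG00000024079.4; mm10 chromosome 17, 78852564 to 78882573, minus strand) was at 40.3, 48.0 and 45.8 CPM in DMSO and at 41.7, 45.7 and 42.6 CPM with erastin. The erastin libraries lay inside the range of the DMSO libraries. The log2 fold change was -0.045 (95% interval -0.27 to 0.17; adjusted p = 0.755 by edgeR), and its sign turned under 2 of the 15 alternatives. For both genes the intervals leave room for small changes in either direction.

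Eif2ak3 (ENSMUSG00000031668.10; mm10 chromosome 6, 70844515 to 70905245, plus strand) was at 43.1, 41.1 and 53.9 CPM in DMSO and at 34.4, 39.3 and 45.2 CPM with erastin. It was the most variable of the 9 genes in both groups, with coefficients of variation of 15.0% and 13.6%, the former shared with Ppp1r15a. The highest erastin library exceeded 2 of the 3 DMSO libraries, and the log2 fold change of -0.21 did not pass (95% interval -0.49 to 0.060; adjusted p = 0.198 by edgeR). A transcript on the opposite strand, Gm43292, overlaps 8.05% of the exon bases of Eif2ak3 and has no row in the count table.

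Eif2ak1 (ENSMUSG00000029613.11; mm10 chromosome 5, 143817788 to 143904251, plus strand) was at 38.7, 41.5 and 38.4 CPM in DMSO and at 34.0, 33.2 and 29.6 CPM with erastin. Every erastin library was below every DMSO library. The log2 fold change was -0.29 (SE 0.11, 95% interval -0.52 to -0.064; adjusted p = 0.0386 by edgeR). The call was lost with total count only (adjusted p = 0.115 by edgeR), with no filter on low counts (adjusted p = 0.180 by edgeR), with the replicate number as a block (log2 fold change -0.29; adjusted p = 0.0545 by edgeR), and when DMSO replicate 1, DMSO replicate 2 or any 1 of the erastin libraries was left out (adjusted p = 0.0606 to 0.135 by edgeR). Exons on the opposite strand of Aimp2 overlap 8.59% of its exon bases; Aimp2 was at 32.0 CPM in DMSO and 35.4 CPM with erastin (adjusted p = 0.487 by edgeR).

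Relative to Eif2ak4 in the same library, the other kinases did not separate the groups. Eif2ak1 over Eif2ak4, per base of exon, was 2.02, 1.99 and 1.66 in DMSO and 1.36, 1.67 and 1.47 with erastin (exact permutation test, two-sided, p = 0.2, adjusted 0.28). The same ratio was 2.33, 2.55 and 2.19 against 1.85, 2.56 and 2.36 for Eif2ak2 (exact permutation p = 0.9, adjusted 0.9). For Eif2ak3 it was 2.11, 1.85 and 2.19 against 1.30, 1.86 and 2.12 (exact permutation p = 0.5, adjusted 0.583). Of the summed level per kilobase of the 4 genes, Eif2ak2 made up 32.3% ± 1.92 in DMSO and 34.5% ± 1.32 with erastin, and Eif2ak4 the least, 13.7% ± 0.423 and 15.5% ± 2.25 (SD, n = 3 each).

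Among 11 genes whose products act on these kinases, 3 were higher, 2 lower and 6 did not pass, with a median log2 fold change of 0.13 against -0.0014 over all genes. These counts are close to the shares over all genes tested, of which 43.1% passed, 21.6% higher and 21.5% lower. Impact, which keeps GCN2 inactive by competing for its partner GCN1, rose from 163 to 257 CPM (log2 fold change 0.66 with an SE of 0.083; adjusted p = 1.45e-05 by edgeR). The chaperone gene Hsp90aa1 rose by 0.60 on the log2 scale (adjusted p = 5.52e-06 by edgeR). Prkra, which encodes the PKR activator PACT, fell from 23.0 to 14.7 CPM (log2 fold change -0.64 with an SE of 0.17; adjusted p = 0.00703 by edgeR). Oma1, a mitochondrial protease that relays stress to HRI, was lower by 0.80 on the log2 scale (adjusted p = 0.0125 by edgeR), a call lost when erastin replicate 1 was left out (adjusted p = 0.0581 by edgeR). Hspa5 and Dnajc3, chosen after their values were seen, encode BiP and P58IPK, which restrain PERK. Hspa5 was 780 CPM in DMSO and 932 CPM with erastin (log2 fold change 0.26; adjusted p = 0.00441 by edgeR), and Dnajc3 was 148 and 130 CPM (log2 fold change -0.19; adjusted p = 0.0704 by edgeR). Dnajc3 passed as lower after the GC and length correction (log2 fold change -0.34; adjusted p = 0.0014 by edgeR), with upper-quartile factors (adjusted p = 0.0235 by edgeR) and without erastin replicate 3 (adjusted p = 0.0320 by edgeR). That correction lowered the log2 fold change of Hspa5 to 0.16 (adjusted p = 0.0490 by edgeR), and with that correction and the replicate block together Hspa5 did not pass (adjusted p = 0.0552 by edgeR).

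Eif2s1 (ENSMUSG00000021116.9; mm10 chromosome 12, 78861819 to 78887010, plus strand), the substrate of the 4 kinases, was at 81.8, 80.6 and 79.6 CPM in DMSO and at 107, 106 and 115 CPM with erastin. The DMSO libraries were close together (coefficient of variation 1.32%), and all erastin libraries were well above them. The fold change was 1.35 (log2 fold change 0.44 with an SE of 0.080, 95% interval 0.27 to 0.61; adjusted p = 0.000449 by edgeR). After the correction for GC content and length it was smaller and still passed (log2 fold change 0.24; adjusted p = 0.0206 by edgeR).

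Eif2b5 (ENSMUSG00000003235.8; mm10 chromosome 16, 20498817 to 20509323, plus strand), the ε subunit that carries out the nucleotide exchange on eIF2, was at 81.2, 84.9 and 85.9 CPM in DMSO and at 74.1, 63.4 and 73.7 CPM with erastin. The groups did not overlap, and erastin replicate 2 was the lowest. The log2 fold change was -0.25 (SE 0.090, 95% interval -0.45 to -0.062; adjusted p = 0.0326 by edgeR). The call was lost with total count only (adjusted p = 0.136 by edgeR), with no filter on low counts (adjusted p = 0.131 by edgeR), after the GC and length correction (log2 fold change -0.18; adjusted p = 0.115 by edgeR, and 0.114 with the replicate block as well), and when DMSO replicate 2, DMSO replicate 3, erastin replicate 1 or erastin replicate 2 was left out (adjusted p = 0.0505 to 0.154 by edgeR). Within libraries the ratio of Eif2b5 to Eif2s1 per base of exon was 1.90, 2.01 and 2.06 in DMSO and 1.32, 1.15 and 1.22 with erastin. This ratio fell in every erastin library below every DMSO library (difference -0.70 on the log2 scale; exact permutation p = 0.1, adjusted 0.175). It holds no correction for GC content and length, with which the log2 fold changes lay closer together (-0.18 for Eif2b5 and 0.24 for Eif2s1).

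Among the other subunits of eIF2 and eIF2B, the genes that passed were all higher. The list of subunits, with Eif2s1, Eif2b5 and Eif5 included, had 9 tested genes. In it 4 were higher, 2 lower (Eif2b5 and Eif5) and 3 did not pass, with a median of 0.26. Of all genes tested 21.6% were higher and 21.5% lower, so the number lower is close to the background. Eif2s2, the β subunit of eIF2, rose from 114 to 177 CPM (log2 fold change 0.64 with an SE of 0.096; adjusted p = 7.81e-05 by edgeR), and by less after the GC and length correction (0.37; adjusted p = 0.00246 by edgeR). Eif5, which encodes the protein that triggers GTP hydrolysis by eIF2, fell from 198 to 129 CPM (log2 fold change -0.62 with an SE of 0.081; adjusted p = 2.08e-05 by edgeR). Chosen after their values were seen, Eif2s3x, for the γ subunit, had a log2 fold change of 0.032, and the eIF2B subunit genes Eif2b1, Eif2b2, Eif2b3 and Eif2b4 had values of 0.31, -0.17, 0.70 and 0.26. Of these Eif2b3 and Eif2b1 passed (adjusted p = 0.000848 and 0.0252 by edgeR), but Eif2b1 did not when DMSO replicate 2, erastin replicate 1 or erastin replicate 2 was left out (adjusted p = 0.0600 to 0.150 by edgeR), or with upper-quartile factors (adjusted p = 0.0587 by edgeR). Eif2b4 passed only after the GC and length correction, without and with the replicate block (log2 fold change 0.38 in both; adjusted p = 0.0377 and 0.0432 by edgeR). The catalytic subunit Eif2b5 was thus the only one of the 5 eIF2B subunit genes with a call in the lower direction, in the analysis without a GC and length correction.

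**Figure D3:**
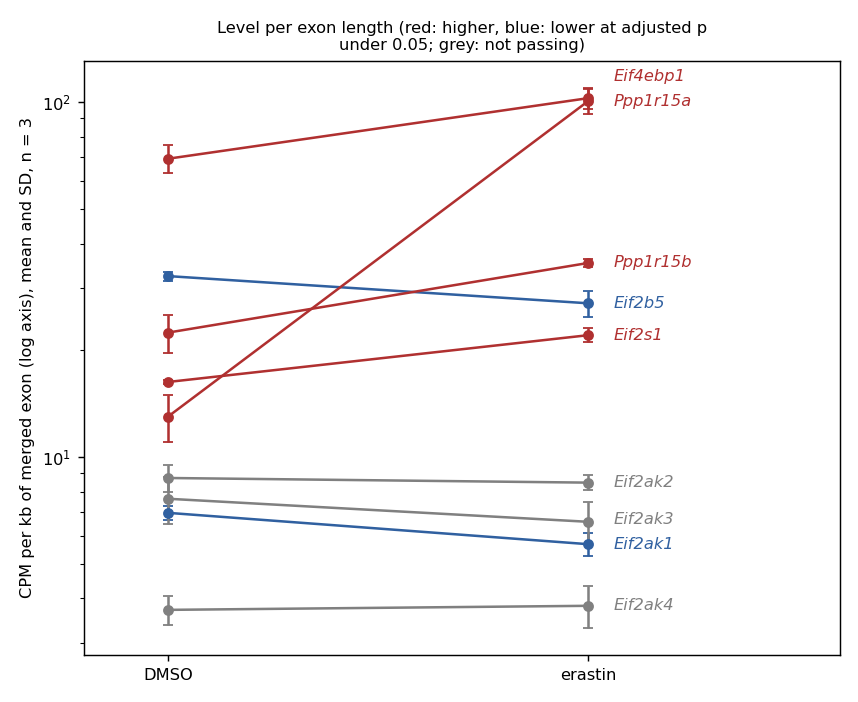
Level per kilobase of merged exon (vertical log axis, CPM per kb; points are means of 3 libraries, error bars SD) of the 9 genes in DMSO and erastin libraries; lines join the means of a gene. Ppp1r15a goes from the fifth place, at 13.0, to 101, level with Eif4ebp1 at 103, and the 4 kinase genes stay lowest in both groups, between 3.72 and 8.74.

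Compared per kilobase of merged exon, Eif4ebp1 had the highest level of the 9 genes in DMSO (69.3 ± 6.24 CPM per kb, SD, n = 3), followed by Eif2b5 (32.4 ± 0.955), Ppp1r15b (22.4 ± 2.80), Eif2s1 (16.3 ± 0.215), Ppp1r15a (13.0 ± 1.95) and the kinases. The libraries of neighbours in this order did not overlap down to Eif2ak2 (8.74 ± 0.778). Eif2ak2 overlapped with Eif2ak3 (7.64 ± 1.15) and Eif2ak3 with Eif2ak1 (6.97 ± 0.306), and Eif2ak4 was apart below them (3.72 ± 0.350). With erastin, Eif4ebp1 (103 ± 7.07) and Ppp1r15a (101 ± 8.30) overlapped at the top, then came Ppp1r15b (35.3 ± 0.961), Eif2b5 (27.1 ± 2.34) and Eif2s1 (22.1 ± 1.02) without overlap. The kinases kept their order, with Eif2ak3 and Eif2ak1 overlapping. Dividing by the length of the longest transcript instead placed Eif2s1 above Ppp1r15b in DMSO and above Eif2b5 with erastin.

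Eif4ebp1 (ENSMUSG00000031490.5; mm10 chromosome 8, 27260329 to 27276674, plus strand), which encodes 4E-BP1, was at 167, 149 and 141 CPM in DMSO and at 233, 236 and 208 CPM with erastin. The groups did not overlap. The fold change was 1.48 (log2 fold change 0.57 with an SE of 0.085, 95% interval 0.39 to 0.75; adjusted p = 7.48e-05 by edgeR). Eif4e, for the cap-binding protein that 4E-BP1 holds, rose more, from 41.3 to 81.5 CPM (log2 fold change 0.98 with an SE of 0.099; adjusted p = 1.6e-06 by edgeR). The ratio of Eif4ebp1 to Eif4e per base of exon was accordingly 9.97, 11.2 and 9.28 in DMSO and 7.86, 7.71 and 7.13 with erastin, lower in all 3 erastin libraries (difference -0.42 on the log2 scale; exact permutation p = 0.1, adjusted 0.175). This ratio holds no correction for GC content and length. With that correction the log2 fold changes lay closer together, at 0.75 for Eif4e and 0.55 for Eif4ebp1.

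Its paralog Eif4ebp2 did not pass the test, at 30.9 CPM in DMSO and 26.7 CPM with erastin (log2 fold change -0.21 with an SE of 0.12; adjusted p = 0.164 by edgeR), and the third paralog, Eif4ebp3, was under the filter on low counts. Eif4ebp1 over Eif4ebp2, per base of exon, was 13.6, 13.0 and 12.3 in DMSO and 21.9, 22.4 and 22.4 with erastin. The ratio was higher in all 3 erastin libraries, 1.72-fold on average, with a narrow spread in both groups (difference 0.78 on the log2 scale, SD 0.0745 and 0.0193, n = 3 each; exact permutation p = 0.1, adjusted 0.175).

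**Figure D4:**
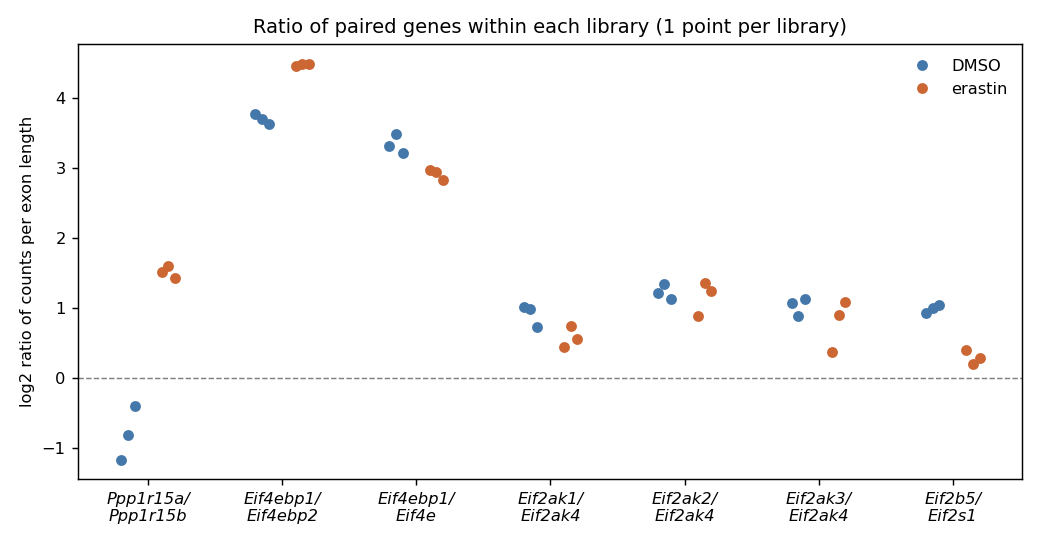
Log2 ratio of counts per exon length for 7 pairs of genes within each library (vertical axis; 1 point per library, blue DMSO, orange erastin); 0 marks equal levels. Ppp1r15a/Ppp1r15b crosses 0, from -0.79 to 1.51 in the mean, and the 3 kinase ratios overlap between the groups. Eif4ebp1/Eif4ebp2, Eif4ebp1/Eif4e and Eif2b5/Eif2s1 separate without crossing 0 by merged exon length. By longest transcript, Eif2b5 was above Eif2s1 in DMSO (32.9 and 23.7 CPM per kb) and below it with erastin (27.6 and 32.1).

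In the list of 15 genes for the cap-binding complex eIF4F, the eIF4E-binding proteins and the eIF4E kinases, 14 were tested, 4 were higher, 2 lower and 8 did not pass, with a median of 0.054. The share that passed is that of all genes tested (43.1%). Mknk2, for a kinase that phosphorylates eIF4E, fell from 95.4 to 72.7 CPM (log2 fold change -0.39; adjusted p = 0.00216 by edgeR), and by less after the GC and length correction (-0.22; adjusted p = 0.0486 by edgeR). Eif4b, a cofactor of the eIF4A helicase, was 368 CPM in DMSO and 316 CPM with erastin (log2 fold change -0.22; adjusted p = 0.0353 by edgeR), with overlapping groups, and the call was lost when DMSO replicate 2, DMSO replicate 3, erastin replicate 1 or erastin replicate 2 was left out (adjusted p = 0.0893 to 0.152 by edgeR), with total count only (adjusted p = 0.144 by edgeR) and with no filter (adjusted p = 0.0846 by edgeR). The 22 genes of mTORC1, which phosphorylates 4E-BP1, and of its regulators had 7 higher, 7 lower and 8 not passing, and a median of 0.15, and the calls of all genes tested were as evenly divided (21.6% higher, 21.5% lower). Rragd, a Rag GTPase that recruits mTORC1 to the lysosome, rose from 10.2 to 29.0 CPM (log2 fold change 1.50 with an SE of 0.16; adjusted p = 2.24e-06 by edgeR). Sesn2, a sestrin that restrains mTORC1, rose by 0.62 on the log2 scale (adjusted p = 1.72e-05 by edgeR). Tbc1d7, for a subunit of the TSC complex, fell from 14.4 to 5.56 CPM (log2 fold change -1.37 with an SE of 0.19; adjusted p = 3.5e-05 by edgeR), and the sestrin gene Sesn3 fell by 0.98 on the log2 scale (adjusted p = 0.000337 by edgeR).

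Ppp1r15a and Eif4ebp1 are textbook targets of the ATF4 arm of this response. Of 13 genes of that arm, these 2 included, all 13 were higher with erastin, against 21.6% of all genes tested, the median being 0.84, the lowest 0.32 and the highest 4.59. The list was written with earlier results of these data known and is not independent evidence of its direction. Ppp1r15a had the smallest p-value of the 13, and Vldlr, a lipoprotein receptor gene, was the next (67.8 to 223 CPM; log2 fold change 1.72 with an SE of 0.082; adjusted p = 1.23e-09 by edgeR). Chosen after their values were seen, Atf4 rose from 217 to 414 CPM (log2 fold change 0.93 with an SE of 0.074; adjusted p = 1.66e-07 by edgeR), and Ddit3, which encodes CHOP, was 73.1 and 95.4 CPM (log2 fold change 0.38 with an SE of 0.12; adjusted p = 0.0199 by edgeR), a call lost when DMSO replicate 1 or erastin replicate 3 was left out (adjusted p = 0.0987 and 0.102 by edgeR). Eif4ebp1, at 0.57, was thus among the smaller rises of this list and Ppp1r15a, at 2.96, among the largest.

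**Figure D5:**
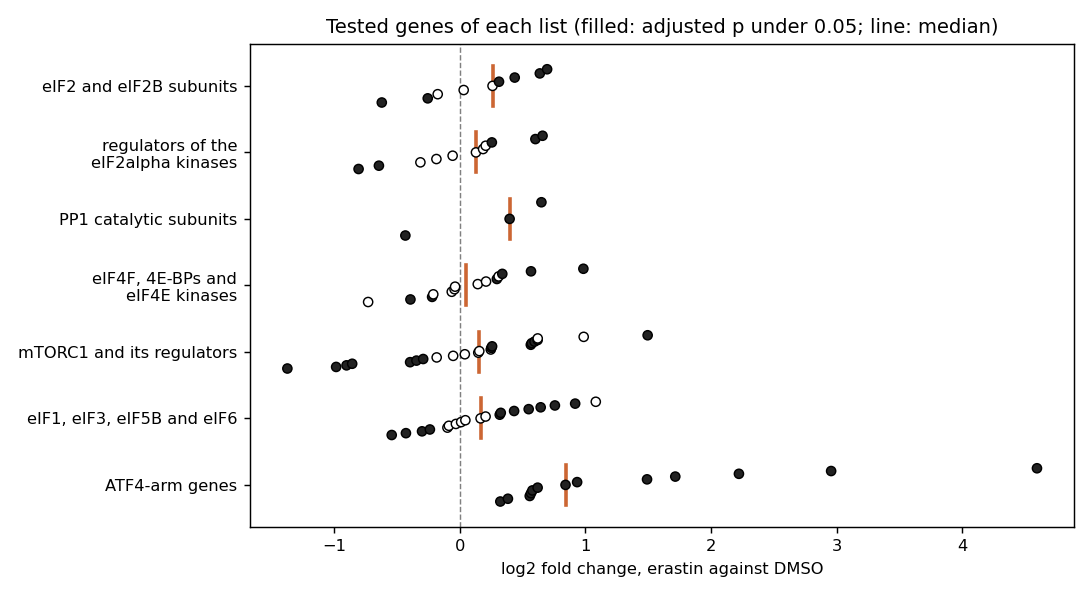
Log2 fold change, erastin against DMSO (horizontal axis), of the tested genes of 7 lists (1 point per gene; filled, edgeR adjusted p under 0.05; orange line, median of the list). The ATF4-arm genes lie wholly right of 0, from 0.32 to 4.59, and in the other lists filled points lie on both sides.

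The genes whose pattern over the 6 libraries was most like that of Ppp1r15a were found among 11253 genes with a read in every library and a mean count of at least 50, by the root mean square difference of log2 CPM centred per gene. They were Csrnp1 (0.219), Extl1 (0.226) and Fosl1 (0.226), with log2 fold changes of 2.85, 2.94 and 3.07. A first version of the measure, log2(CPM + 0.5) over 11260 genes, gave Fosl1 (0.216), Csrnp1 (0.219) and Fgf21 (0.238, log2 fold change 4.88); the offset was dropped after that result was seen, because the rule as written has none. For Eif4ebp1 they were Cflar (0.0198), Gpd2 (0.0341) and Slain2 (0.0375), with log2 fold changes of 0.53, 0.58 and 0.60, and the version with the offset gave the same 3 genes. With 6 libraries in 2 groups, genes with a like treatment difference come out alike by this measure.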

How the data were processed

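Ribosomal RNA was depleted from total RNA and fragments were sequenced on an Ion Proton, per the labels' protocols. The deposited table holds raw read counts per gene and library; HTSeq 0.9.1, SAMtools and build mm10 are named per the submitters' processing notes. The aligner, the annotation release and the strand setting are not given in the sources used here, so reads of overlapping, antisense or near-identical genes are uncertain. Identifiers, without version, were matched to GENCODE M21 (GRCm38), and 42462 of 43346 (98%) had a symbol. The sample number in a column's name ties it to its library, and 0 per-sample columns went unused.

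Counts were filtered with filterByExpr (minimum count 10, total 15), scaled with TMM factors and tested with edgeR 4.0.16 in R 4.3.3 (quasi-likelihood, treatment as the only term), with p-values adjusted over 14000 genes. An SE is the absolute log2 fold change before edgeR's shrinkage, divided by the root of the F statistic. The log2 fold changes given, on which the intervals are centred, are those after shrinkage. CPM of 3 counts, the smallest level taken as detected, was 0.14 to 0.234 by library and covers counting error only. Levels between genes use merged exon length. The scripts were tested on simulated data. Members and lists were chosen with earlier results of these data known. Named genes were the members, the 2 genes with the smallest p-value in each direction of each list, all genes of a list under 5, and the 3 genes most like Ppp1r15a and Eif4ebp1; others are said to have been chosen after their values were seen. Alternatives were RLE and upper-quartile factors, total count only, no filter, a filter of 1 CPM in 3 or more libraries, the replicate block, a GC and length offset (mgcv 1.9.3), DESeq2 1.42.0 and leaving out each library. An offset in the likeness measure is listed as an alternative chosen after seeing the data.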

Additional observations from a re-analysis of the deposited data

How the results depend on the processing

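The 4 rises (Ppp1r15a, Ppp1r15b, Eif4ebp1, Eif2s1) kept direction and call under all 15 alternatives each, and the count of all genes passing stayed within 1.5 times. The number of the 9 genes called lower, reported as 2, was 0 with total count only and with no filter on low counts, 1 with the replicate block, 1 with the GC and length offset, alone or with the block, and 0 to 1 with 1 library left out. Eif2ak1 was not called with total count only (-0.23), no filter (-0.28) and the replicate block (-0.29), and ran from -0.34 to -0.23 with 1 library left out. Eif2b5 was not called with total count only (-0.19), no filter (-0.23) and the offset (-0.18 alone, -0.19 with the replicate block), and ran from -0.29 to -0.18 with 1 library left out. Eif2ak4 turned to -0.014 with upper-quartile factors and to -0.032 and -0.038 with the offset without and with the block (leave-one-out -0.079 to 0.11). Eif2ak2 turned to 0.019 with total count only (leave-one-out -0.12 to 0.012). Eif2s3x turned to -0.022 with upper-quartile factors and to -0.080 and -0.079 with the offset (leave-one-out -0.024 to 0.13), and Aimp2 ran from -0.052 to 0.27. The ratio of Eif2ak2 to Eif2ak4 ran from -0.17 to 0.060. The causes were not tested.

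Scaling moved list medians with the median of all genes, which was -0.055 with upper-quartile factors and 0.065 with total count only. In that order, medians were 0.076 and 0.19 for regulators of the kinases, -0.00040 and 0.12 for eIF4F, 0.098 and 0.22 for mTORC1, 0.11 and 0.23 for eIF1, eIF3, eIF5B and eIF6, and 0.79 and 0.90 for the ATF4 arm. With the GC and length offset they were 0.0090 for the kinase regulators, 0.16 for the phosphatase catalytic subunits, 0.013 for eIF4F, 0.19 for mTORC1 and 0.11 for eIF1, eIF3, eIF5B and eIF6. With the replicate block as well, the first 3 were 0.011, 0.16 and 0.014. With 1 library left out, the median of the eIF2 and eIF2B list ran from 0.084 to 0.34, that of the kinase regulators from 0.031 to 0.15 and that of the ATF4 arm from 0.78 to 0.89. By longest transcript, Eif2s1 ranked 3 and Ppp1r15b 4 in DMSO, and Eif2s1 ranked 4 and Eif2b5 5 with erastin.

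A replicate block gave 5882 passing genes, against 6028 without it, and 5751 were shared; among the 9 genes only the call of Eif2ak1 changed. Equally numbered libraries were nearly uncorrelated in their deviations from the group means (mean 0.0128, and -0.00628 for differently numbered libraries). With 3 libraries a group, this cannot show whether equally numbered libraries were handled together, which the labels do not say. The least counted of the 9 genes, Eif2ak4, had 334 to 705 reads per library.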

Other observations

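Genes of the initiation machinery outside eIF2 and eIF4F had calls in both directions. Of 19 genes for eIF1, eIF3, eIF5B and eIF6, 7 were higher, 4 lower and 8 did not pass, with a median log2 fold change of 0.17. Of all genes tested 21.6% were higher and 21.5% lower, so the number lower is close to the background. Eif6, whose product keeps the ribosomal subunits apart, was at 90.4, 93.1 and 85.7 CPM in DMSO and at 156, 152 and 147 CPM with erastin (log2 fold change 0.76 with an SE of 0.078; adjusted p = 1.93e-06 by edgeR). Within the eIF3 complex, Eif3c rose by 0.55 on the log2 scale (adjusted p = 6.99e-06 by edgeR). Eif3f and Eif3m fell by 0.54 and 0.43 on the same scale (adjusted p = 0.000153 and 0.00135 by edgeR).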
